A study of Homo sapiens with 8 samples.

Results

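The 33 genes described here act in G2 and mitosis. They are cyclins, kinases, kinesin motors and centromere, checkpoint, spindle and cytokinesis genes, taken by symbol from a list and joined to the counts by Ensembl identifier. All 33 were found among the 63677 genes of the count tables, and all 33 passed the filter on low counts in every comparison below. Transcripts were measured by RNA sequencing in MOLT-4 and DND-41, a pair of established human cell lines from T-cell acute lymphoblastic leukaemia. The treated groups of each line received 100 nM ACBI-1 for 24 h, and the control groups received its solvent, DMSO, for the same 24 h. ACBI-1, a degrader of the PROTAC kind, tethers SMARCA2, SMARCA4 and PBRM1, which are subunits of chromatin remodelling complexes, to the ubiquitin ligase VHL and so leads to their loss. The 4 groups were MOLT-4 with ACBI-1, MOLT-4 with DMSO, DND-41 with ACBI-1 and DND-41 with DMSO, with 2 libraries each. The labels do not say whether the libraries of a group came from separate cultures, so each p-value reflects only how far these libraries differ, and part or all of that may be technical.

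A cell enters mitosis when B-type cyclins and CDC25 phosphatases bring the kinase CDK1 to full activity. Spindle microtubules then attach to chromosomes at the kinetochores, and the spindle checkpoint keeps the anaphase-promoting complex in check until attachment is complete, after which the complex, with CDC20, marks securin and cyclin B for destruction. The genes of this programme are transcribed late in the cell cycle, largely through promoters with CCAAT boxes, bound by NF-Y, and with a cell cycle genes homology region (CHR), bound by the MuvB complex, which represses as part of DREAM in resting cells and activates together with B-MYB and FOXM1 in dividing cells. In RNA from whole cultures, fewer cells in G2 and mitosis and less of a transcript per such cell cannot be told apart.

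The 8 libraries held 21308737 to 22067644 counts. The 8 T-lineage markers had a summed level of 2211 to 2354 CPM (a count scaled to a fixed library size) in MOLT-4 and 3139 to 3394 CPM in DND-41, where PTCRA was at 0.043 CPM or less in every library. Single markers lay on different sides of their controls in MOLT-4, with CD3G at 468 and 444 CPM with ACBI-1, against 288 and 299 CPM with DMSO, and CD7 at 25.5 and 21.1 CPM with ACBI-1, against 149 and 141 CPM with DMSO, and their part in the results was not tested. TAL1 was at 56.6 to 118 CPM in MOLT-4 while TLX3 was at 120 to 248 CPM in DND-41. TLX3 was at 0 in all MOLT-4 libraries. The erythroid markers were at 0.042 CPM or less in every library. The chi-square per degree of freedom over genes was 2.85 between both MOLT-4 libraries with ACBI-1 and 1.56 between both with DMSO, against 55.7 to 57.0 between treatments. In DND-41 it was 6.001 and 5.53 between libraries of the same replicate number and 70.2 to 84.1 between different numbers, whatever their treatment label. The MOLT-4 comparison is therefore given first, and the DND-41 comparison is given as labelled with the authors' deposited table beside it.

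In MOLT-4, the mitotic genes did not move as a block. With ACBI-1, 15 of 33 were higher, 6 were lower and 12 did not pass the threshold (edgeR, adjusted p under 0.05). Of all 14618 genes tested, 58.4% were called, 28.2% higher and 30.2% lower. The rises were between 1.07-fold and 1.66-fold, and the falls were to between 0.783 and 0.925 of the level with DMSO. The median log2 fold change of the 33 genes was 0.10, against 0.01 for all genes tested. In each of the 21 genes called, both ACBI-1 libraries lay on 1 side of both DMSO libraries. Over all 33 genes they lay above in 19 and below in 7, against 38.9% and 38.8% of all genes, 77.7% in all. BUB1, TTK and NDC80 were the 3 genes with a log2 fold change of at least 0.4 in size. The genes that fell were CCNA2, CCNB1, CCNB2, PLK1, CDC20 and PTTG1.

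These calls depended on scaling and on the size asked of a change. With library totals in place of TMM, the median of all genes shifted to 0.13, and 26 of the 33 genes were higher and 2 lower, with 60.4% of all genes called, 39.7% higher and 20.7% lower. PTTG1 and CCNB1 were the 2 that remained lower, at log2 fold changes of -0.23 (adjusted p = 6.71e-06) and -0.09 (adjusted p = 0.0378). CCNA2, CCNB2 and PLK1 no longer passed, and CDC20 moved to 0.01 (edgeR adjusted p = 0.891). The plot of fold changes in MOLT-4 shows both estimates of each gene. Against a change of 1.5-fold, BUB1 alone passed, with 11.9% of all genes called, 6.13% higher and 5.75% lower. With a spread shared with the DND-41 libraries, edgeR called 0 of the 33, with 3 at an unadjusted p under 0.05 and 3.39% of all genes called, 1.56% higher and 1.83% lower. DESeq2 called 10 higher and 6 lower, with 36.3% of all genes called. Without DMSO replicate 2, 9 genes were called higher.

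**Figure D1:**
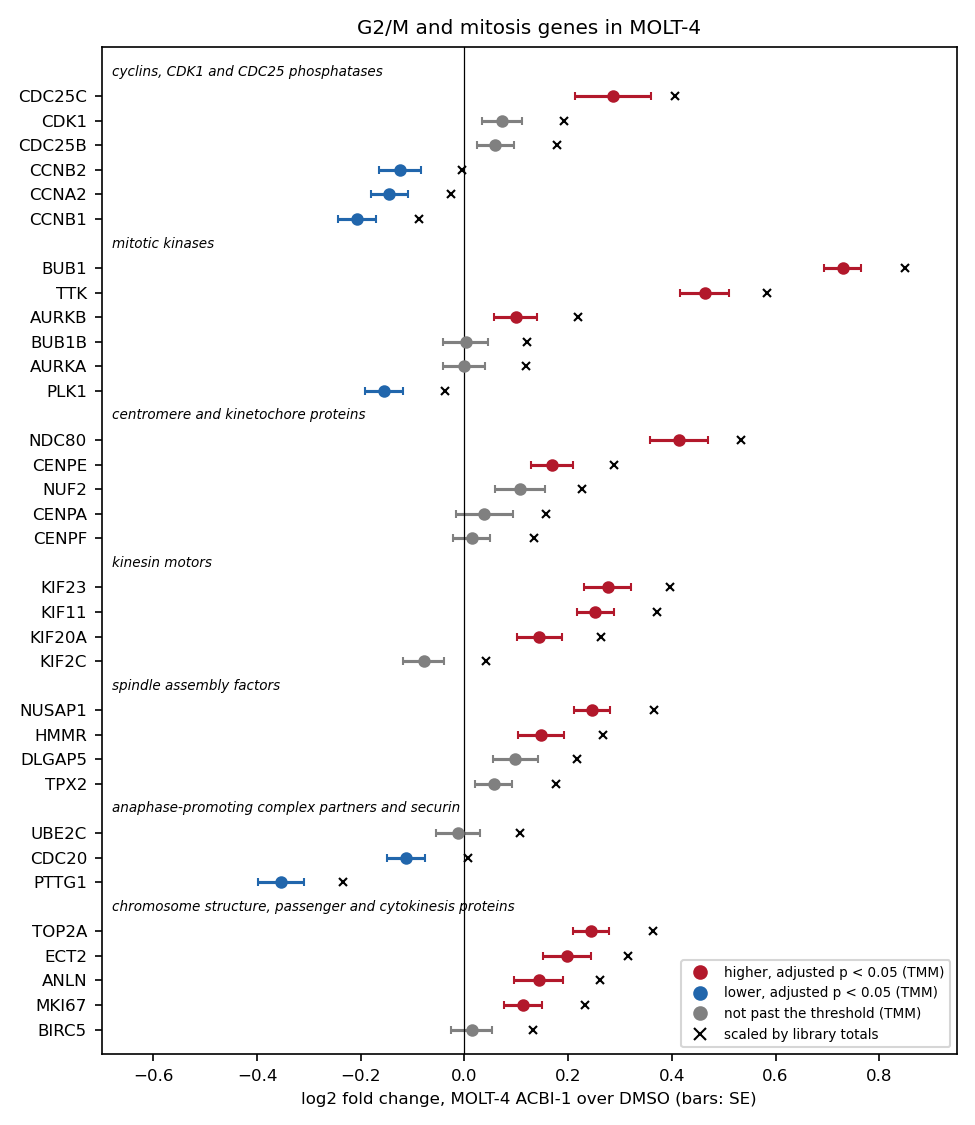
Log2 fold change of each gene in MOLT-4, ACBI-1 over DMSO, grouped by role. Points and bars are the edgeR estimate and its standard error (2 libraries per group), colours mark the genes past the adjusted p threshold, and crosses are the estimates scaled by library totals. BUB1 lies farthest to the right at 0.73 and PTTG1 farthest to the left at -0.35, and the crosses of CCNA2, CCNB2, PLK1 and CDC20 lie near 0.

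The promoters of the genes that fell and of 3 genes that rose are shown because they carry the letters known from cell cycle genes. BUB1, KIF11 and KIF23 were chosen after their values were seen. Each line gives the 100 bases before the RefSeq start in GRCh38.p14, 5′ to 3′ on the gene's strand, at chr4:121823884-121823983 (minus) for CCNA2, chr5:69167050-69167149 (plus) for CCNB1, chr15:59105046-59105145 (plus) for CCNB2, chr16:23678789-23678888 (plus) for PLK1, chr1:43358881-43358980 (plus) for CDC20, chr5:160421755-160421854 (plus) for PTTG1, chr2:110678064-110678163 (minus) for BUB1, chr10:92593030-92593129 (plus) for KIF11 and chr15:69414249-69414348 (plus) for KIF23. Capitals mark CCAAT or its reverse complement, ATTGG, and the CHR cores TTTGAA, its reverse complement TTCAAA, and TTTAAA, which is its own reverse complement.
CCNA2: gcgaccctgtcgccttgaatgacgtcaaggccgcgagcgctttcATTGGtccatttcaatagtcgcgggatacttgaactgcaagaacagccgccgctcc
CCNB1: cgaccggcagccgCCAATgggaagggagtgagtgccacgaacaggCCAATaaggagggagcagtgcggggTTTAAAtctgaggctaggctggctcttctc
CCNB2: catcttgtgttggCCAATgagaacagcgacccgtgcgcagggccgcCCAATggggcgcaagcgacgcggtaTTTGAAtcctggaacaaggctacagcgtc
PLK1: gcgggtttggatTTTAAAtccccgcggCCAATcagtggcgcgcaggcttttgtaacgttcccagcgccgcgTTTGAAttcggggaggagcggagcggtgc
CDC20: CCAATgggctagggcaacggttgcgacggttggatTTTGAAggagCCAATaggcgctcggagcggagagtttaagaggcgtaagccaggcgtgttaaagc
PTTG1: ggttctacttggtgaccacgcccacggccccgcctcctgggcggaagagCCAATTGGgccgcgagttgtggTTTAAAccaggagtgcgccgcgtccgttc
BUB1: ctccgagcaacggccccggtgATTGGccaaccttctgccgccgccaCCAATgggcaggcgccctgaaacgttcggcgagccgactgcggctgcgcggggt
KIF11: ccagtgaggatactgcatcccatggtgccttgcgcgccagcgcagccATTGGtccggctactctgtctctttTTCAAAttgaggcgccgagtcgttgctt
KIF23: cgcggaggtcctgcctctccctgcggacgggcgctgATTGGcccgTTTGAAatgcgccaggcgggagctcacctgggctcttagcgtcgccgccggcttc
In PTTG1, CCAAT and ATTGG overlap. The stretch of BUB1 has CCAAT on both strands and no TTTGAA or TTTAAA, and that of CCNA2 has a CCAAT on the opposite strand and no TTTGAA or TTTAAA.

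RefSeq promoters of 300 bases, from 250 before to 50 after the start, were matched for 28 of the 33 genes. AURKA, BIRC5, TPX2, TTK and UBE2C had no entry in the table. TTTGAA or TTTAAA, searched on both strands, was present in 25 of 28 genes (89.3%), against 27.9% of 27305 genes with a promoter in the table. CCAAT was present in 22 of 28 (78.6%), against 39.7% of all genes. Both kinds were present in 18 of 28 (64.3%), against 11.2% of all genes. The E2F site cores TTCCCGC or TTGGCGC were present in 6 of 28 (21.4%), against 10.96% of all genes. In the 150 bases before the start, CCAAT with TTTGAA or TTTAAA was present in 17 of 28 genes (60.7%), against 4.04% of all genes.

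The genes that fell and those that rose in MOLT-4 both held these letters. CCAAT was in 6 of the 6 genes that fell and in 11 of the 14 that rose and had a promoter in the table. TTTGAA or TTTAAA was in 5 of the 6 that fell and in 12 of the 14 that rose. A match is a description of the sequence, not a bound site, and these numbers of genes are small.

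Cyclins and the activators of CDK1 split in MOLT-4. The roles described from here on hold only 3 to 6 genes each, and of all genes tested 28.2% were higher and 30.2% lower. The 3 cyclins fell with TMM, CCNB1 alone of them with library totals, and CDC25C rose, while CDK1 and CDC25B did not pass with TMM. CCNB1, the B-type cyclin that drives mitotic entry, had 182 and 182 CPM with ACBI-1, against 209 and 213 CPM with DMSO. Both treated libraries lay below both controls, and the log2 fold change was -0.21 (SE 0.037, edgeR adjusted p = 6.81e-06). CCNA2, the cyclin of S phase and G2, had 288 and 288 CPM with ACBI-1, against 319 and 318 CPM with DMSO, its log2 fold change being -0.14 (SE 0.035, edgeR adjusted p = 0.000498). CCNA2 overlaps EXOSC9 on the opposite strand, whose counts came to 41.9% of those of CCNA2. CCNB2, the second B-type cyclin, had 135 and 136 CPM with ACBI-1, against 148 and 147 CPM with DMSO (log2 fold change -0.12, SE 0.040, edgeR adjusted p = 0.00684), and lost its call without either DMSO library.

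CDK1, the kinase itself, had 190.1 and 197 CPM with ACBI-1, against 183 and 185 CPM with DMSO. The libraries did not overlap, but the estimate of 0.07 (SE 0.038) did not pass (edgeR adjusted p = 0.101). CDC25B, a phosphatase that activates CDK1 at mitotic entry, had an estimate of 0.06 (SE 0.036, edgeR adjusted p = 0.155), and passed without ACBI-1 replicate 2. CDC25C, its relative that keeps CDK1 active in mitosis, had 25.8 and 26.9 CPM with ACBI-1, against 21.8 and 21.4 CPM with DMSO, and rose by 0.29 on the log2 scale (SE 0.073, edgeR adjusted p = 0.000845). CDC25C had the lowest counts of the 33 genes, and FAM53C on the opposite strand had 312% of its counts. Neither DESeq2 nor the authors' deposited table called CDC25C in MOLT-4 (adjusted p = 0.0781 in the authors' deposited table).

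Among 6 mitotic kinases, 3 rose and 1 fell, against 28.2% higher and 30.2% lower of all genes. BUB1, the checkpoint kinase that marks centromeric chromatin and recruits other checkpoint proteins to kinetochores, had 442 and 455 CPM with ACBI-1, against 272 and 270.0 CPM with DMSO. The treated libraries stood far above the controls and differed little among themselves. The log2 fold change was 0.73 (SE 0.035, edgeR adjusted p = 9.48e-22), a 1.66-fold rise. TTK, also known as MPS1, the kinase that starts checkpoint signalling, had 93.2 and 95.7 CPM with ACBI-1, against 70.0 and 67.3 CPM with DMSO. Again the groups lay apart, and the log2 fold change came to 0.46 (SE 0.047, edgeR adjusted p = 2.06e-11).

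BUB1B, which encodes the checkpoint protein BUBR1, had 122 and 115 CPM with ACBI-1, against 120.0 and 117 CPM with DMSO. Those libraries overlapped, and its log2 fold change was 0.00 (SE 0.043, edgeR adjusted p = 0.967). AURKA, the Aurora kinase of centrosomes and spindle poles, had 141 and 146 CPM with ACBI-1, against 147 and 141 CPM with DMSO (log2 fold change -0.00044, SE 0.041, edgeR adjusted p = 0.994). AURKA also overlapped between treatments, although library totals gave an estimate of 0.12 (edgeR adjusted p = 0.00951). AURKB, the Aurora kinase of the chromosomal passenger complex, had 121 and 120 CPM with ACBI-1, against 113 and 113 CPM with DMSO. The estimate of 0.10 (SE 0.042, edgeR adjusted p = 0.0407) passed by little, and the call was lost in 3 of 4 fits that left out 1 library and with DESeq2. PLK1, the Polo kinase that acts from mitotic entry to cytokinesis, had 279 and 264 CPM with ACBI-1, against 303 and 303 CPM with DMSO. It fell by 0.16 on the log2 scale (SE 0.037, edgeR adjusted p = 0.00033) and no longer passed with library totals.

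**Figure D2:**
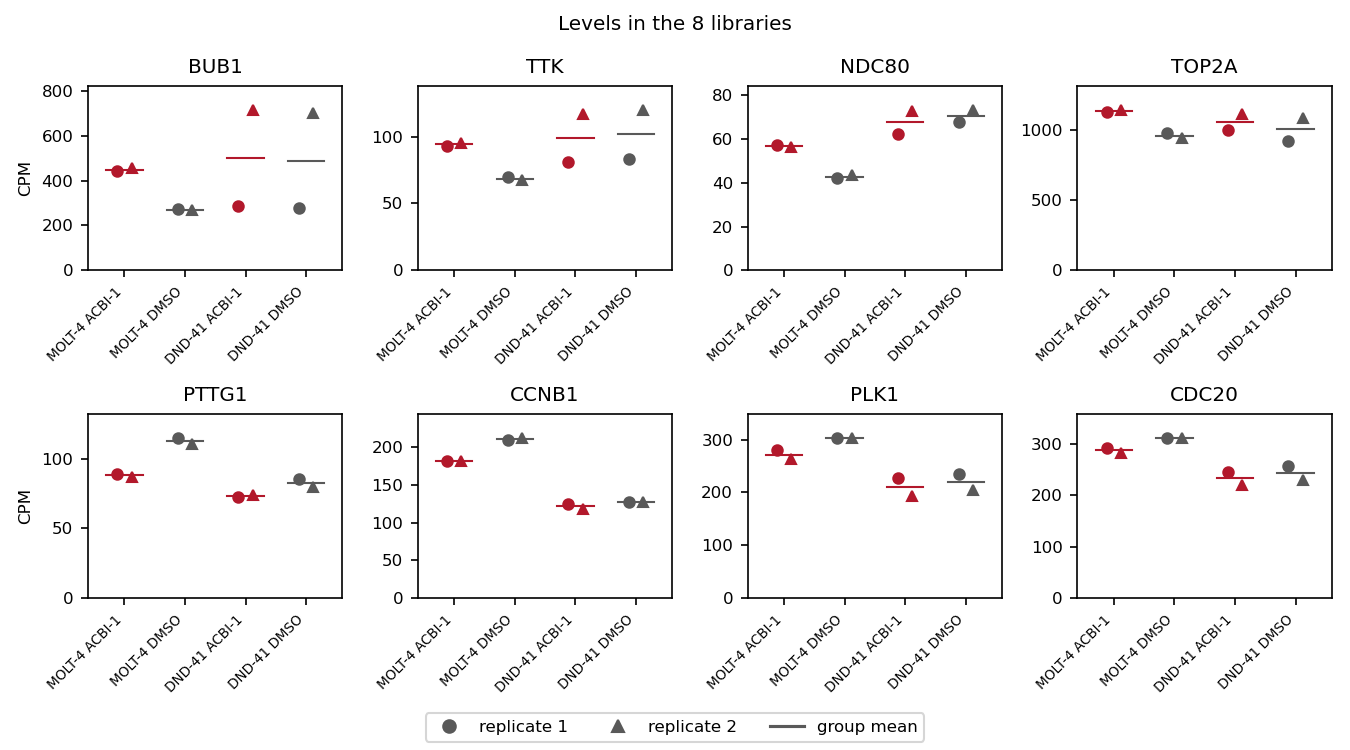
CPM of 8 genes in each of the 8 libraries, by group (ACBI-1 in red, DMSO in grey), with the mean of each group as a line. In MOLT-4 the red and grey points of each gene lie apart, whereas in DND-41 the BUB1 points split by replicate number, at 715 and 701 CPM for number 2 and 286 and 276 CPM for number 1.

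Of 5 centromere and kinetochore genes, 2 rose and none fell, against 28.2% higher and 30.2% lower of all genes. NDC80, a subunit of the complex that binds microtubules at the kinetochore, had 57.4 and 56.5 CPM with ACBI-1, against 42.3 and 43.4 CPM with DMSO. The groups did not overlap, and NDC80 rose by 0.41 on the log2 scale (SE 0.055, edgeR adjusted p = 1.85e-08). NUF2, its partner in the same complex, had 75.1 and 75.8 CPM with ACBI-1, against 69.9 and 70.4 CPM with DMSO. NUF2 had separate libraries too, but the estimate of 0.11 (SE 0.048) was just short of the threshold (edgeR adjusted p = 0.0528). CENPE, the kinetochore motor that moves chromosomes to the metaphase plate, had 143 and 150 CPM with ACBI-1, against 132 and 129 CPM with DMSO (log2 fold change 0.17, SE 0.041, edgeR adjusted p = 0.000466), and lost its call without DMSO replicate 2. CENPA, the histone H3 variant of centromeres, and CENPF, a large kinetochore protein, had overlapping libraries, with log2 fold changes of 0.04 and 0.01.

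Kinesin motors rose in 3 of 4 genes and spindle factors in 2 of 4, and none fell, against 28.2% higher and 30.2% lower of all genes. KIF11, the motor that pushes spindle poles apart, had 291 and 295 CPM with ACBI-1, against 249 and 244 CPM with DMSO (log2 fold change 0.25, SE 0.036, edgeR adjusted p = 7.91e-08). KIF23, a centralspindlin subunit, had 95.4 and 97.6 CPM with ACBI-1, against 80.1 and 79.5 CPM with DMSO (log2 fold change 0.28, SE 0.046, edgeR adjusted p = 1.43e-06). Both motors were separated between treatments, and both kept their calls when any 1 library was left out. KIF20A, the motor that carries passenger proteins to the central spindle, rose by 0.14 on the log2 scale (SE 0.043, edgeR adjusted p = 0.00412), a call lost without DMSO replicate 2. DESeq2 and the authors' deposited MOLT-4 table did not call KIF20A. BRD8 on the opposite strand had 125% of the counts of KIF20A. KIF2C, the depolymerising kinesin of centromeres, was at 156 and 159 CPM with ACBI-1, against 171 and 163 CPM with DMSO (log2 fold change -0.08, edgeR adjusted p = 0.086), and with library totals its estimate was 0.04.

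NUSAP1, a microtubule-binding spindle protein, had 347 and 353 CPM with ACBI-1, against 294 and 297 CPM with DMSO. Its treated libraries lay above the controls, and the log2 fold change came to 0.25 (SE 0.035, edgeR adjusted p = 8.29e-08). HMMR, a spindle pole protein, rose by 0.15 (SE 0.044, edgeR adjusted p = 0.00418), a call lost without either DMSO library. Neither DESeq2 nor the authors' deposited MOLT-4 table called HMMR. TPX2, the activator of AURKA on spindle microtubules, and DLGAP5, a protein of kinetochore fibres, had log2 fold changes of 0.06 and 0.10 and did not pass (edgeR adjusted p = 0.169 and 0.0518), although DLGAP5 passed without ACBI-1 replicate 1.

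Of 3 partners of the anaphase-promoting complex, 2 fell with TMM and PTTG1 alone with library totals. Of all genes, 30.2% were lower with TMM and 20.7% with library totals. PTTG1, or securin, the inhibitor of separase, had 89.1 and 86.8 CPM with ACBI-1, against 115 and 110.2 CPM with DMSO. Both treated libraries lay well below both controls, and PTTG1 fell to 0.783 of its level with DMSO (log2 fold change -0.35, SE 0.044, edgeR adjusted p = 4.48e-09). CDC20, the coactivator of the complex in mitosis, had 292 and 282 CPM with ACBI-1, against 310.3 and 312 CPM with DMSO (log2 fold change -0.11, SE 0.036, edgeR adjusted p = 0.00631). The CDC20 libraries did not overlap, but the call was lost without either DMSO library and the estimate was 0.01 with library totals. UBE2C, the ubiquitin-conjugating enzyme of the complex, had 114 and 118 CPM with ACBI-1, against 116 and 118 CPM with DMSO, and these overlapped (log2 fold change -0.01, SE 0.042, edgeR adjusted p = 0.828). With library totals UBE2C was at 0.11 (edgeR adjusted p = 0.0264).

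Among genes of chromosome structure, the passenger complex and cytokinesis, 4 of 5 rose, against 28.2% of all genes. TOP2A, the topoisomerase that untangles sister chromatids, had 1133 and 1146 CPM with ACBI-1, against 981 and 945 CPM with DMSO. The groups lay apart, and the log2 fold change came to 0.24 (SE 0.035, edgeR adjusted p = 6.85e-08). MKI67, which encodes the proliferation marker Ki-67 that coats mitotic chromosomes, had 962 and 897 CPM with ACBI-1, against 874 and 848 CPM with DMSO. MKI67 rose by 0.11 (SE 0.036, edgeR adjusted p = 0.007), a call lost without ACBI-1 replicate 1 or DMSO replicate 2. ECT2, the exchange factor that activates RhoA for cytokinesis, rose by 0.20 (SE 0.046, edgeR adjusted p = 0.000303). ANLN, or anillin, a scaffold of the contractile ring, rose by 0.14 (SE 0.047, edgeR adjusted p = 0.00809), with KIAA0895 on the opposite strand at 10.6% of its counts, and lost its call in each fit without 1 library except that without ACBI-1 replicate 1. Its call was also absent with DESeq2 and in the authors' deposited MOLT-4 table. BIRC5, or survivin, of the passenger complex, was at 139 and 136 CPM with ACBI-1, against 135 and 138 CPM with DMSO, and did not pass (log2 fold change 0.01, edgeR adjusted p = 0.79).

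The summed level of the 33 genes in MOLT-4 was 7826 and 7812 CPM with ACBI-1, against 7329 and 7202 CPM with DMSO. Their share of all counts was 0.777% and 0.783% with ACBI-1, against 0.670% and 0.663% with DMSO. Levels between genes can be compared only per length. With DMSO in MOLT-4, TPX2 at 159.6, CDC20 at 152.6 and TOP2A at 149.7 CPM per kb of exon had the highest levels. CDC25C had the lowest, at 6.48 CPM per kb, followed by NDC80 at 11.9 and KIF23 at 12.1 CPM per kb. TOP2A was first with ACBI-1, at 177 CPM per kb.

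In DND-41 as labelled, no mitotic gene was called. EdgeR called 0 of 33 in either direction, with 0 of 33 at an unadjusted p under 0.05, and DESeq2 called 0 of 33. Of all 14602 genes tested, 0% were called and 37 had an unadjusted p under 0.05. The median log2 fold change of the 33 genes was -0.03, against -0.0024 for all genes. It was between -0.18 and 0.09 when each library was left out in turn.

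The DND-41 libraries divided by number. BUB1 had 286 and 715 CPM under the ACBI-1 label and 276 and 701 CPM under the DMSO label, replicate 1 first. Number 2 was high and number 1 low under both labels. TTK had 81.2 and 117 CPM under the ACBI-1 label and 83.6 and 120.0 CPM under the DMSO label, with the same order. CDC25C had 14.5 and 21.7 CPM under the ACBI-1 label and 12.2 and 22.8 CPM under the DMSO label. Both number 2 libraries lay above both number 1 libraries in 24 of the 33 genes and below them in 2, against 37.5% above and 37.9% below of all genes. CD79A, a B-lineage marker, went with the number too. It had 689 and 177 CPM under the ACBI-1 label and 735 and 208 CPM under the DMSO label, replicate 1 first. The B-lineage marker MS4A1 was at 0 in every library, and the part of CD79A-expressing cells in these values was not tested. Markers of other lists also went with the number. In the same order, CD7 had 1251 and 214, then 1228 and 252 CPM, and TLX3 had 234 and 120, then 248 and 140 CPM. CD3G went the other way, with 433 and 1050, then 423 and 1118 CPM. Both libraries labelled ACBI-1 lay above both labelled DMSO in 2 genes, ANLN and MKI67, and below them in 5, CCNA2, CCNB1, AURKB, UBE2C and PTTG1, against 8.29% and 7.82% of all genes.

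MKI67 had 1155 and 1399 CPM under the ACBI-1 label and 951 and 1148 CPM under the DMSO label, with an estimate of 0.29 on the log2 scale (SE 0.193). PTTG1 had 72.7 and 73.6 CPM under the ACBI-1 label and 85.4 and 79.5 CPM under the DMSO label, with an estimate of -0.17 on the log2 scale (SE 0.124). In both genes the labelled groups lay apart without passing the test. A fit with replicate number as a block called 3 of 33 higher (CENPE, CENPF and MKI67) and 2 lower (AURKB and PTTG1), with 9.24% of all genes called, 5.32% higher and 3.92% lower. The labels do not say that a number marks a shared culture or day, and 2 pairs are too few to show it.

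**Figure D3:**
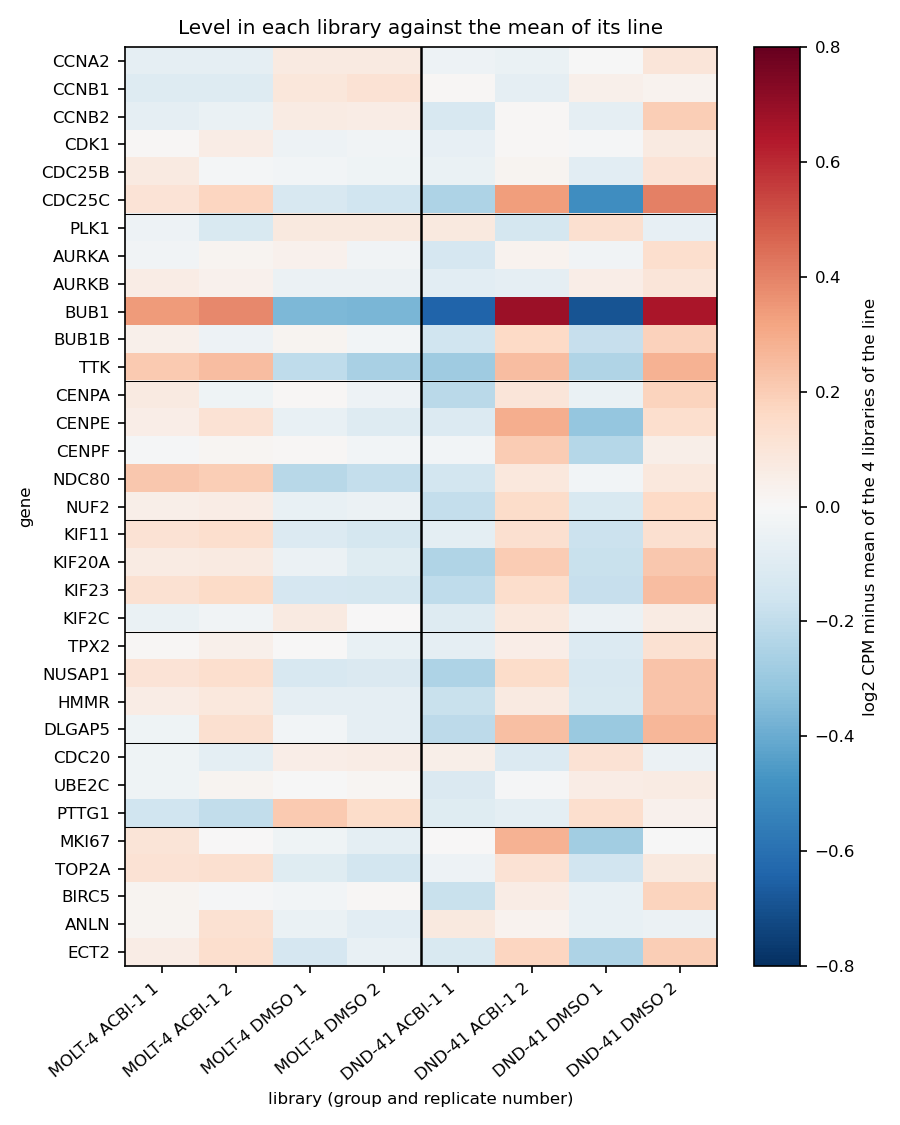
Level of each of the 33 genes in each library as log2 CPM minus the mean of the 4 libraries of its line, with genes in the order of the text and lines between roles. In MOLT-4 (left) both ACBI-1 columns lie on 1 side of both DMSO columns in the 21 genes called, while some other genes overlap. In DND-41 (right) both number 2 columns are redder than both number 1 columns in 24 genes, most of all BUB1.

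The authors' deposited table for DND-41 gave other fold changes than the labels of the count columns. In all of 27069 genes, 100%, its log2 fold changes equalled those of number 2 over number 1 within 0.001, and in 0.151% they equalled ACBI-1 over DMSO as labelled. All 33 mitotic genes were among the equal ones. The authors' deposited table for MOLT-4 equalled ACBI-1 over DMSO in 100% of 27777 genes. Nothing in the labels or headers says whether the count columns or the authors' deposited table carry the DND-41 treatment, so the values of that table are given as a description of number 2 over number 1.

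In the authors' deposited DND-41 table, 15 of the 33 genes were higher and 1 was lower at an adjusted p under 0.05, with 36.8% of all genes called, 15.2% higher and 21.6% lower. The median log2 fold change of the 33 genes in the authors' deposited table was 0.23 in DND-41 and 0.09 in MOLT-4. Over the 14053 genes with an adjusted p in both tables, the medians were -0.0070 and -0.0049 in the same order. The authors' deposited table for MOLT-4 called 10 of the 33 higher and 6 lower, with 35.1% of all genes called, 14.7% higher and 20.3% lower.

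BUB1 led both tables, at a log2 fold change of 1.32, SE 0.071 and adjusted p = 2.29e-73 in the authors' deposited DND-41 table and 0.72 (SE 0.041, adjusted p = 1.87e-65) in that for MOLT-4. TTK was at 0.51 (SE 0.090) and 0.45 (SE 0.072) in the authors' deposited tables for DND-41 and MOLT-4. KIF11 had nearly the same value in both of the authors' deposited tables, 0.24 (SE 0.077) in DND-41 and 0.24 (SE 0.045) in MOLT-4. DLGAP5 was at 0.49 (SE 0.093, adjusted p = 1.04e-06) in the authors' deposited DND-41 table and at 0.09 (SE 0.063, adjusted p = 0.334) in that for MOLT-4. BUB1B was at 0.32 (SE 0.084, adjusted p = 0.000554) in the authors' deposited DND-41 table and at -0.01 (SE 0.063, adjusted p = 0.936) in that for MOLT-4.

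The genes that fell in MOLT-4 all had estimates below 0 in DND-41 as labelled, between -0.17 and -0.06, and none passed. The median of all 33 genes was below 0 there too, at -0.03. AURKB, TTK, NDC80, KIF20A, KIF23, NUSAP1 and HMMR, which rose in MOLT-4, were also below 0, and the other genes that rose were above. Without 1 library, CCNB2 ran from -0.24 to 0.01 and PLK1 from -0.16 to 0.05, while CCNA2 and CCNB1 stayed below 0. In the authors' deposited DND-41 table, number 2 over number 1, the genes that fell in MOLT-4 lay on both sides of 0. PLK1 was the 1 gene called lower in the authors' deposited DND-41 table, at -0.22 (SE 0.080, adjusted p = 0.0177). CDC20 was at -0.17 (SE 0.079, adjusted p = 0.0692), CCNB1 at -0.06 (SE 0.088) and PTTG1 at -0.06 (SE 0.109) in the authors' deposited DND-41 table. CCNA2 at 0.03 (SE 0.085) and CCNB2 at 0.19 (SE 0.097, adjusted p = 0.11) had the other sign in the authors' deposited DND-41 table. Over the 33 genes, 26 (78.8%) had the same sign in both of the authors' deposited tables, as did 75.5% of 14053 genes with an adjusted p in both. Across the 33 genes, Pearson's r between the authors' deposited tables was 0.776, and 0.658 without BUB1, against 0.582 across all genes. Genes are not independent replicates, and these r values describe the tables alone.

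**Figure D4:**
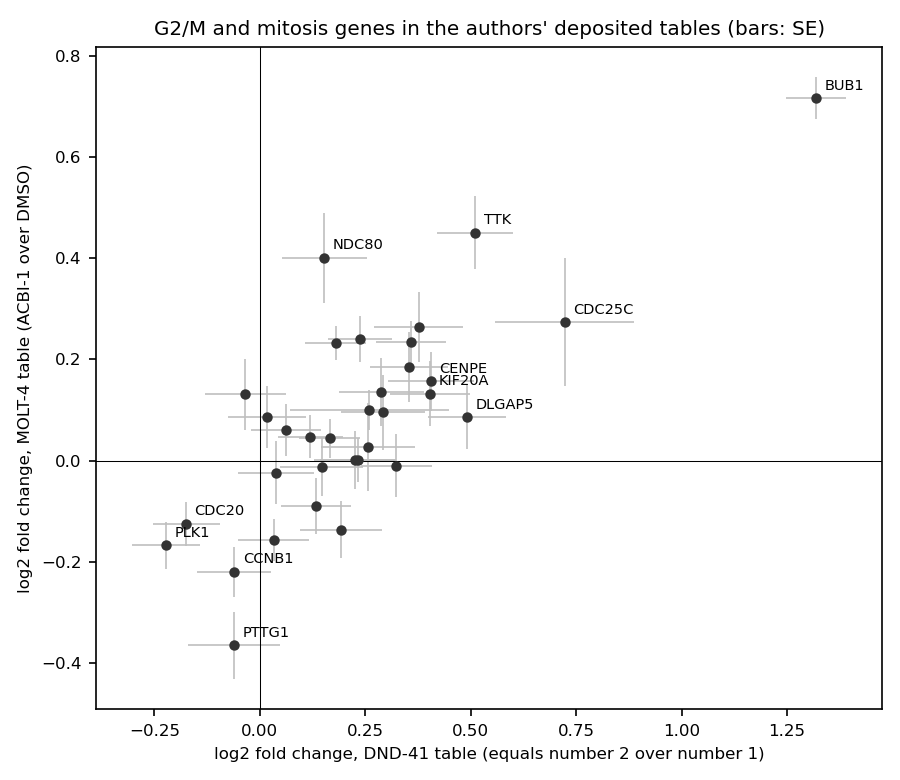
Log2 fold changes of the 33 genes in the authors' deposited tables, DND-41 on the horizontal axis (number 2 over number 1) and MOLT-4 on the vertical axis (ACBI-1 over DMSO), with bars of 1 standard error. BUB1 lies alone at the upper right at 1.32 and 0.72, and PTTG1 is the lowest point at -0.06 and -0.37.

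The difference between the responses, MOLT-4 minus DND-41 as labelled, was tested as an interaction over 8 libraries. EdgeR called 0 of the 33 genes, with 0.393% of 16047 genes called. An unadjusted p under 0.05 was found for 1 of the 33, and DESeq2 called 0. For BUB1 the difference was 0.69 with an SE of 0.737 (edgeR adjusted p = 0.773), in a fit where its DND-41 libraries ran between 276 and 715 CPM. With replicate number as a block, 10 of the 33 differences were called higher and 3 lower, with 36.5% of all genes called, 17.2% higher and 19.3% lower, and BUB1 at 0.69 (SE 0.061, edgeR adjusted p = 2.73e-19) was among those higher.

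Levels in the libraries labelled DMSO differed between the lines in some of these genes. In DND-41 it is not settled that these labels carry the treatment, so libraries labelled DMSO may not all be untreated. In DMSO, 9 of the 33 were higher in MOLT-4 than in DND-41 and 3 were lower, with 39.5% of all genes called, 20.1% higher and 19.4% lower. Each line has its own count table, so line and table cannot be told apart. With library totals, which put the median of all genes at -0.19, against -0.02 with TMM, 4 were higher (CCNB1, PLK1, AURKA and PTTG1) and 3 lower, with 40.9% of all genes called. Without MOLT-4 DMSO replicate 1 or 2, 2 and 3 genes were higher. The mean of both treatments of each line gave 15 higher and 4 lower, with 53.4% of all genes called. Its estimates average all libraries of a line whatever their label, but its calls rest on the spread within the labelled groups.

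The Aurora kinases went opposite ways between the lines. AURKA had 147 and 141 CPM in MOLT-4 with DMSO, against 81.7 and 91.1 CPM in DND-41 with DMSO. The lines did not overlap, and the log2 difference was 0.73 (SE 0.099, edgeR adjusted p = 0.00195). AURKB had 113 and 113 CPM in MOLT-4 with DMSO, against 187 and 193 CPM in DND-41 with DMSO. Here DND-41 was the higher line, with a log2 difference of -0.75 (SE 0.074, edgeR adjusted p = 0.000531). UBE2C was likewise lower in MOLT-4, with 116 and 118 CPM against 180.3 and 180.8 CPM in DND-41 with DMSO (log2 difference -0.63, SE 0.080, edgeR adjusted p = 0.00153). NDC80 was lower too, at 42.3 and 43.4 CPM in MOLT-4 against 67.9 and 73.3 CPM in DND-41 with DMSO (log2 difference -0.72, SE 0.105, edgeR adjusted p = 0.00264). CCNB1 was higher in MOLT-4, at 209 and 213 CPM against 128 and 127 CPM in DND-41 with DMSO (log2 difference 0.73, SE 0.076, edgeR adjusted p = 0.000699). The other genes higher in MOLT-4 were CCNA2, CCNB2, CDC25B, PLK1, DLGAP5, CDC20 and PTTG1, at log2 differences of 0.36 to 0.73. BUB1 and TTK did not pass, at -0.85 (SE 0.524, edgeR adjusted p = 0.236) and -0.57 (SE 0.220, edgeR adjusted p = 0.083), with BUB1 at 272 and 270.0 CPM in MOLT-4 against 276 and 701 CPM in DND-41 with DMSO.

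Beyond these 33 genes, 9 lists of 136 other mitotic genes were counted in the same MOLT-4 fit. Over the 136 genes, 57 were higher and 37 lower with ACBI-1 (edgeR, adjusted p under 0.05), with a median log2 fold change of 0.06, against 0.01 for all genes. With library totals 85 were higher and 17 lower. Of all genes tested, 28.2% were higher and 30.2% lower with TMM, and 39.7% and 20.7% with library totals. Each list below is to be read beside these shares. Against a 1.5-fold change and with a spread shared with DND-41, edgeR called 0 of the 136 (0 and 20 at an unadjusted p under 0.05), and DESeq2 called 42 higher and 27 lower. Over all genes, the 1.5-fold test called 11.9%, the shared spread 3.39%, and DESeq2 15.2% higher and 21.1% lower. Among condensin, cohesin and separase genes 12 of 22 were higher and 1 lower, among mitotic kinesins 7 of 9 and 1, and among kinetochore genes 14 of 27 and 6, or 9 and 2 with DESeq2. Of anaphase-promoting complex genes, 3 of 17 were higher and 10 lower at a median of -0.21, although with library totals they had 6 higher and 7 lower at a median of -0.09. Several genes of this list overlap well-counted genes on the opposite strand, with 1860% of the counts of ANAPC10, 825% of CDC26 and 501% of ANAPC11. ANAPC2, ANAPC4, ANAPC7, CDC16 and UBE2S had no such overlap. Among checkpoint genes 2 of 10 were higher and 4 lower, which became 4 and 2 with library totals. Regulators of the CDK1 switch had 4 of 16 higher and 5 lower, which became 9 and 1 with library totals.

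**Figure D5:**
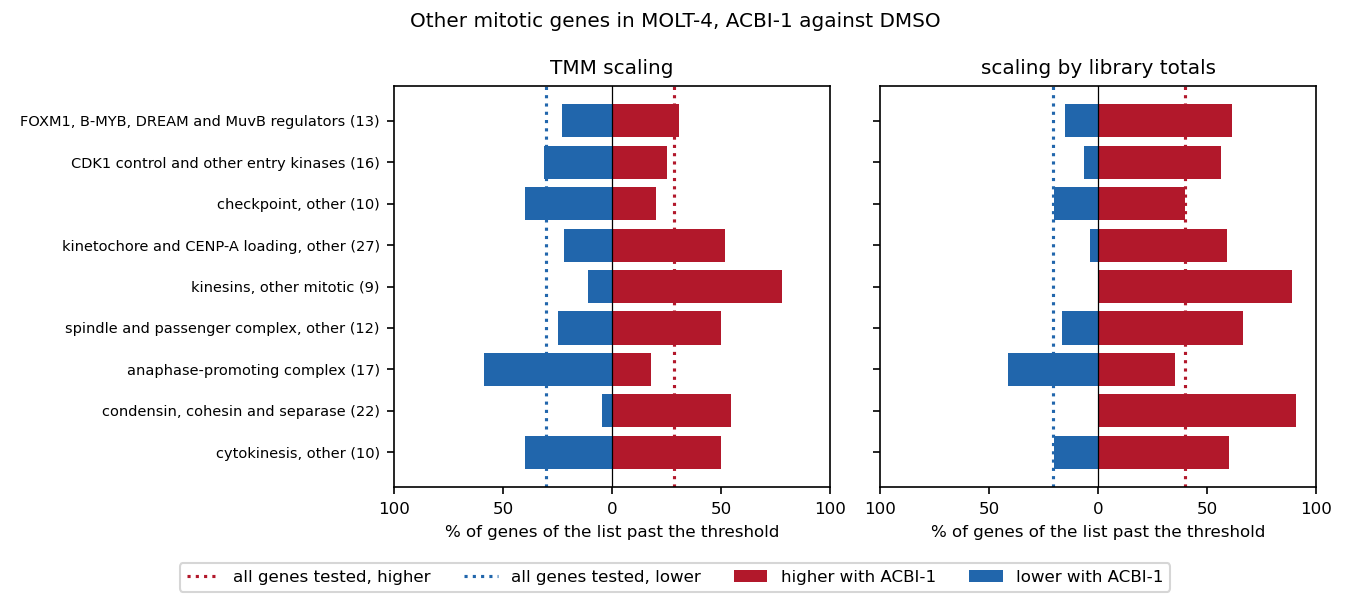
Share of the genes of each list called higher (right) and lower (left) in MOLT-4 with ACBI-1 against DMSO, with TMM on the left and library totals on the right, and the number of genes in brackets. Dotted lines are the shares over all genes tested, 28.2% higher and 30.2% lower with TMM and 39.7% and 20.7% with library totals.

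PRC1, which bundles microtubules in the central spindle, had 138 and 138 CPM with ACBI-1, against 99.3 and 101 CPM with DMSO. It lay apart by treatment, and the log2 fold change came to 0.47 (SE 0.042, edgeR adjusted p = 5.06e-13). DSN1, of the MIS12 complex that holds NDC80 at the kinetochore, had 128 and 123 CPM with ACBI-1, against 89.7 and 88.1 CPM with DMSO (log2 fold change 0.50, SE 0.044, edgeR adjusted p = 2.42e-13). CASC5, the KNL1 scaffold to which BUB1 binds, rose by 0.27, and KNTC1, of the complex that brings dynein and MAD proteins to kinetochores, rose by 0.29. CENPP, of the constitutive centromere network, rose by 0.47, with NOL8 on the opposite strand at 248% of its counts. The kinesins KIF18B, KIF15 and KIF4A rose by 0.38, 0.22 and 0.19. The condensin subunits SMC2 and NCAPD2 rose by 0.33 and 0.28, and ESPL1, the separase that securin inhibits, rose by 0.29 with 238 and 237 CPM against 198 and 190 CPM with DMSO (SE 0.038, edgeR adjusted p = 6.54e-09). ASPM and NUMA1, of the spindle poles, rose by 0.28 and 0.21.

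ANAPC1, the scaffold of the anaphase-promoting complex, had 108 and 111 CPM with ACBI-1, against 152 and 141 CPM with DMSO. Its groups did not overlap, and it fell by 0.42 on the log2 scale (SE 0.043, edgeR adjusted p = 3.31e-11). ANAPC5 fell by 0.31, and ANAPC10 fell by 0.59, though ABCE1 on the opposite strand had 1860% of the counts of ANAPC10. RAN, the GTPase that guides spindle assembly around chromosomes, had 637 and 659 CPM with ACBI-1, against 794 and 837 CPM with DMSO (log2 fold change -0.33, SE 0.035, edgeR adjusted p = 8.13e-11). MYH9, a non-muscle myosin heavy chain, and CHMP4B, an ESCRT subunit of abscission, fell by 0.43 and 0.45. TRIP13 and MAD2L1BP, which take the mitotic checkpoint complex apart, fell by 0.26 and 0.49, with BRD9 on the opposite strand at 76.6% of the counts of TRIP13.

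Among regulators of the promoters shown above, E2F4, the E2F of the DREAM complex, had 190 and 181 CPM with ACBI-1, against 245 and 249 CPM with DMSO. E2F4 lay below its controls, and the log2 fold change came to -0.41 (SE 0.038, edgeR adjusted p = 8.52e-13). LIN54, the MuvB subunit that contacts the CHR, fell by 0.37 (SE 0.046, edgeR adjusted p = 3.97e-09), and RBL2, the DREAM pocket protein p130, rose by 0.30 (SE 0.041, edgeR adjusted p = 3.75e-08). E2F4, LIN54 and RBL2 had the smallest adjusted p among genes of their list with at least 5 CPM, and the list also holds FOXM1 and B-MYB. Over the 13 genes of that list, 4 were higher and 3 lower, which became 8 and 2 with library totals. Of all genes, 28.2% were higher and 30.2% lower, which became 39.7% and 20.7% with library totals. Of the kinases and phosphatases around CDK1, CDC25A fell by 0.37, and the centrosome kinase NEK2 and the CDK-binding CKS1B rose by 0.32 and 0.21. KIF4A had the largest adjusted p of the 27 genes named from the 9 lists (edgeR, 0.00048), with PDZD11 on the opposite strand at 34.1% of its counts. All 27, which were picked for a small adjusted p in this comparison, kept their direction and call with library totals and in each of the fits without 1 library, and all 27 lost their call against a 1.5-fold change and with a spread shared with DND-41. In DND-41 as labelled, edgeR called 0 of the 136 genes, with 0 at an unadjusted p under 0.05. The authors' deposited table for DND-41, a different contrast of number 2 over number 1, called 33 higher and 24 lower, with 15.2% of all genes called higher and 21.6% lower.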

How the data were processed

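RNA of 8 libraries was sequenced strand-specifically in read pairs, per the labels' protocols. The submitters' processing notes name STAR 2.5.2a, the build hg19, featureCounts and DESeq2 1.12.4. The featureCounts version, strand setting and annotation are not given in the sources used here. The authors deposited 1 table of raw counts for each line, with Ensembl identifiers, and 1 DESeq2 table per line with log2 fold changes and standard errors. The same deposited tables hold p-values and adjusted p-values, Wald scores (the deposited log2 fold change over its standard error) and a mean normalised signal per gene, which was not used here. Since strand use is unknown, counts of genes overlapping on the opposite strand were set beside a gene, summed over 8 libraries, with overlaps and exon lengths from GENCODE release 29 (52526 identifiers matched). Of the count columns, 0 were left unassigned.

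Here the deposited counts were fitted in R 4.3.3 by the 2-sided quasi-likelihood F-test of edgeR 4.0.16, after filterByExpr and TMM scaling, each line by itself for the treatment, and all 8 libraries for the interaction and the lines. The Benjamini-Hochberg adjustment ran over all genes tested, at 0.05. CPM use TMM-adjusted totals of all 8 libraries. DESeq2 1.42.0, other scalings and filters, fits without 1 library, a replicate block, a test against 1.5-fold and a shared spread were alternatives, and the fits were tested on simulated data. Promoters came from RefSeq (GRCh38.p14) and were read as letters, with no hg19 coordinates converted. The 33 genes, the lists and the tests were chosen with earlier results of these data known. Full values per library were due for genes past the threshold with a log2 fold change of at least 0.4 and for the 3 with the smallest change (AURKA, BUB1B and UBE2C), and others were added after their values were seen. From each of the other lists, up to 3 genes with the smallest adjusted p in MOLT-4 and at least 5 CPM were named. Correlations of the deviations of same-numbered libraries from their group means were 0.849 in DND-41 and 0.00928 in MOLT-4. The summed level of the B-lineage marker list is not reported here.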

Additional observations from a re-analysis of the deposited data

Results flagged for a closer look

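AURKB was the 1 gene whose libraries went fully opposite ways in the lines as labelled. In MOLT-4 both ACBI-1 libraries, at 121 and 120 CPM, lay above both DMSO libraries, at 113 and 113 CPM (log2 fold change 0.10). In DND-41 both libraries labelled ACBI-1, at 170.4 and 172 CPM, lay below both labelled DMSO, at 187 and 193 CPM (log2 fold change -0.14). The difference between these responses was 0.25 (SE 0.104) and did not pass the interaction test (edgeR adjusted p = 0.503). With replicate number as a block, the difference passed (SE 0.066, edgeR adjusted p = 0.00129), as did the DND-41 value (edgeR adjusted p = 0.0178). Those blocked fits called 36.5% of all genes for the difference and 9.24% in DND-41. The MOLT-4 value passed by little (edgeR adjusted p = 0.0407) and was not called with DESeq2. In the authors' deposited DND-41 table, which follows number 2 over number 1, AURKB was at 0.02 (SE 0.092).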

How the results depend on the processing

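For MOLT-4, the 15 genes called higher became 26 with library totals, 9 with no filter on low counts, 1 against a 1.5-fold change and 0 with a spread shared with DND-41, and were 9 to 15 without 1 library, lowest without DMSO replicate 2. The 6 called lower became 2, 0 and 0 with library totals, the 1.5-fold test and the shared spread, and were 4 to 6 without 1 library. With the shared spread, 3 of the 33 genes had an unadjusted p under 0.05 in edgeR, and 3.39% of all genes were called. The median log2 fold change was 0.22 with library totals. AURKA (0.12), UBE2C (0.11), KIF2C (0.041) and CDC20 (0.0063) had the other sign with library totals, as the construction of that scaling gives a shift of all genes.

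In DND-41 as labelled, the replicate block called 3 higher and 2 lower in place of 0, and the median was -0.176 to 0.0899 without 1 library. For the difference of responses, the replicate block called 10 higher and 3 lower in place of 0, with 36.5% of all genes called. Its median of 0.11 became 0.21 with library totals (0.11 for all genes) and -0.0047 to 0.20 without 1 library. Same-numbered libraries deviated together in DND-41 and not in MOLT-4, where the block called 16 higher and 6 lower. For the lines in DMSO, the 9 genes higher in MOLT-4 became 4 with library totals, 15 with the mean of both treatments, 0 against a 1.5-fold change (4 genes at an unadjusted p under 0.05) and 2 to 11 without 1 library. The 3 lower became 1 against 1.5-fold. The median of 0.09 was -0.093 with library totals, 0.20 with the mean of both treatments and 0.0019 to 0.28 without 1 library, lowest without DND-41 DMSO replicate 1 and highest without DND-41 DMSO replicate 2. Causes other than construction were not tested. That each group holds 2 libraries limits every comparison, and in DND-41 the spread between them is that between numbers.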

Other observations

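Ratios within a library do not depend on its scaling, and these pairs were chosen after their values were seen. BUB1 had 3.64 and 3.96 counts per count of BUB1B in MOLT-4 with ACBI-1, against 2.27 and 2.32 with DMSO. In DND-41 the same ratio was 2.41 and 4.86 under the ACBI-1 label and 2.37 and 4.68 under the DMSO label, replicate 1 first, so it followed the number. CCNB1 had 0.958 and 0.926 counts per count of CDK1 in MOLT-4 with ACBI-1, against 1.14 and 1.147 with DMSO, and in DND-41 0.754 and 0.677 under the ACBI-1 label against 0.742 and 0.697 under the DMSO label.

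NDC80 had 0.765 and 0.745 counts per count of its partner NUF2 in MOLT-4 with ACBI-1, against 0.606 and 0.616 with DMSO. In each of the 4 DND-41 libraries NDC80 had at least as many counts as NUF2. AURKA had 1.16 to 1.30 counts per count of AURKB over the 4 MOLT-4 libraries and 0.437 to 0.494 over the 4 DND-41 libraries, with no overlap between the lines.

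COL1A1, a stromal collagen gene, was at 14.4 CPM in MOLT-4 ACBI-1 replicate 2 and at 1.14 CPM or less in the other 7 libraries. Without that library, 15 of the 33 mitotic genes were called higher and 6 lower in MOLT-4, ANLN having lost its call and CDC25B having gained one.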
